A study of Mus musculus with 20 samples.

Results

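The comparison described here set the ventricles of 6-month-old Sorbs2 knockout mice that had been given Sorbs2 back (KO+AAV, n = 4) against those of untreated knockout mice of the same age (KO, n = 5). These are 9 of the 20 samples of the study. They were chosen by their labels: the KO+AAV mice had received the vector AAV9-Tnnt2-Sorbs2 on postnatal day 2, and the KO mice had received nothing. Both groups carry the knockout, and 5 untreated wild-type hearts (WT) of the same age are given beside them as a reference. A gene was tested when its normalised count was at least 10 in at least 4 of the 14 libraries of that age, which held for 13419 of 18657 genes. The labels name the tissue as left ventricle, and the extraction protocol names ventricular myocardium.

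Sorbs2 encodes a scaffold protein with SH3 domains that sits at Z-discs, intercalated discs and the actin cytoskeleton of heart muscle cells. AAV9 is an adeno-associated virus that reaches the mouse heart well, and the Tnnt2 (cardiac troponin T) promoter restricts the transgene largely to cardiomyocytes. A heart under load or losing function typically returns to fetal and stress genes such as natriuretic peptides and the beta myosin heavy chain, lays down collagen, and lowers genes of mitochondrial energy supply.

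No group received an empty vector, so injection, virus and restored Sorbs2 cannot be told apart. The labels number each heart as a mouse of its own, and p-values refer to the spread between these mice. Each KO library summed to between 11359135 and 12222476 normalised counts and each KO+AAV library to between 12024143 and 13041764, estimated to stand for 11.2 to 14.2 M and 9.6 to 13.0 M counted reads. Xist marked 2 of 4 KO+AAV libraries (replicates 1 and 3) and 0 of 5 KO libraries, so this class is uneven between the groups. Some libraries stood apart within their group: after group means were removed, KO 1 and KO 5 correlated across genes at 0.41, KO+AAV 3 and 4 at 0.33, and KO+AAV 2 and 3 at -0.63. Removing a group mean by itself lowers the correlations within that group. Between groups, KO 1 and KO+AAV 2 correlated at 0.49, KO 2 and KO+AAV 4 at 0.39, and KO 1 and KO+AAV 4 at -0.47. In bulk tissue, fewer cells of a type and less RNA per cell cannot be told apart.

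Sorbs2 (chromosome 8, 45507788 to 45827906, plus strand, mm10) was higher in every KO+AAV heart than in any KO heart. Its normalised counts were 1648, 612, 593, 494 and 1755 in KO 1 to 5. In KO+AAV 1 to 4 they were 4696, 5753, 15690 and 17923, against 5040 ± 369 (SD, n = 5) in WT. The KO+AAV hearts thus fell into a pair near the WT level and a pair well above it, and KO 1 and KO 5 kept more Sorbs2 signal than the other KO hearts. The lowest KO+AAV value was 2.68 times the highest KO value. The difference on the log2(value + 1) scale, which all differences below use, was 3.41 (SE 0.43, 95% interval 2.50 to 4.32; limma adjusted p = 0.000383). An exact two-sided permutation test of the 9 values gave p = 0.00794, the smallest that 126 splits can give. Group means were 20.2% of WT in KO and 219% in KO+AAV. The labels do not say which exons the knockout removes or whether the vector carries the whole transcript, so counts over the whole gene do not give the share of intact message.

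Sorbs3, a gene of the same family that encodes vinexin, differed by -0.08 and did not pass the test (limma adjusted p = 0.858). It was 1637 and 1536 in KO 1 and KO 5 and 697 to 845 in the other KO hearts. It was 1599 in KO+AAV 2 and 755 to 1039 in the other vector hearts, so its spread lay within groups rather than between them.

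**Figure D1:**
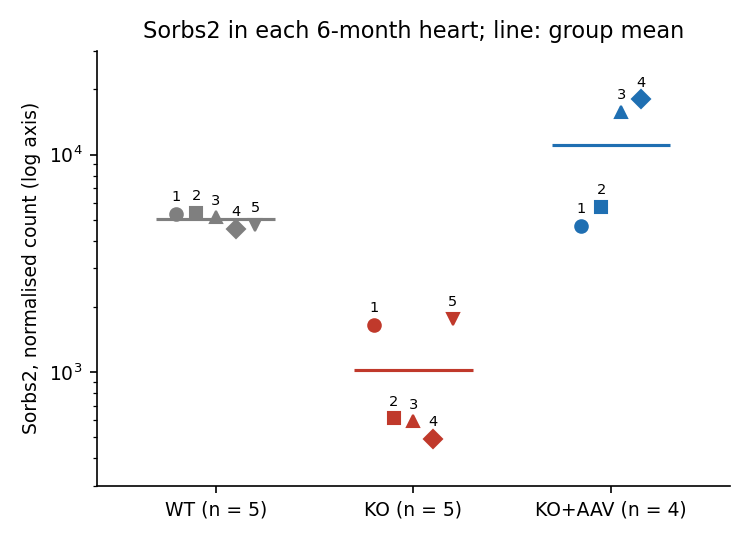
Normalised count of Sorbs2 (log axis) in each 6-month heart of the WT, KO and KO+AAV groups; numbers are replicates and lines are group means. KO+AAV 1 and 2 sit near the WT level, KO+AAV 3 and 4 lie above it, and all 4 lie above the 5 KO hearts.

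Over all genes tested, 1509 passed the limma test at an adjusted p of 0.05 (11.2%). Of these, 745 were higher (5.55%) and 764 lower (5.69%) in KO+AAV. The decreases were larger: 339 genes fell at least 2-fold and 207 rose at least 2-fold. The 2 groups did not overlap at all for 1894 genes (14.1%), with KO+AAV above KO for 896 (6.68%) and below it for 998 (7.44%). The median difference of all genes was near 0 (-8.12e-06). Scaling every library to the same total moved that median to -0.0789 and the share of calls that were higher from 49.4% to 33.9% of 1538. The count also rested on single libraries: 571 genes passed without KO+AAV 1 (240 higher, 331 lower), 855 without KO 5 (405 higher, 450 lower), and 485 instead of 745 were higher without KO 4. With the Xist or Y-linked class as a covariate 542 genes passed, and 522 of the 1509 were among them. Each of the 1509 kept its direction there, which is a description, since they were called on these same libraries. In Y-linked libraries alone, which leave 3 WT, 5 KO and 2 KO+AAV hearts, 332 genes passed.

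**Figure D2:**
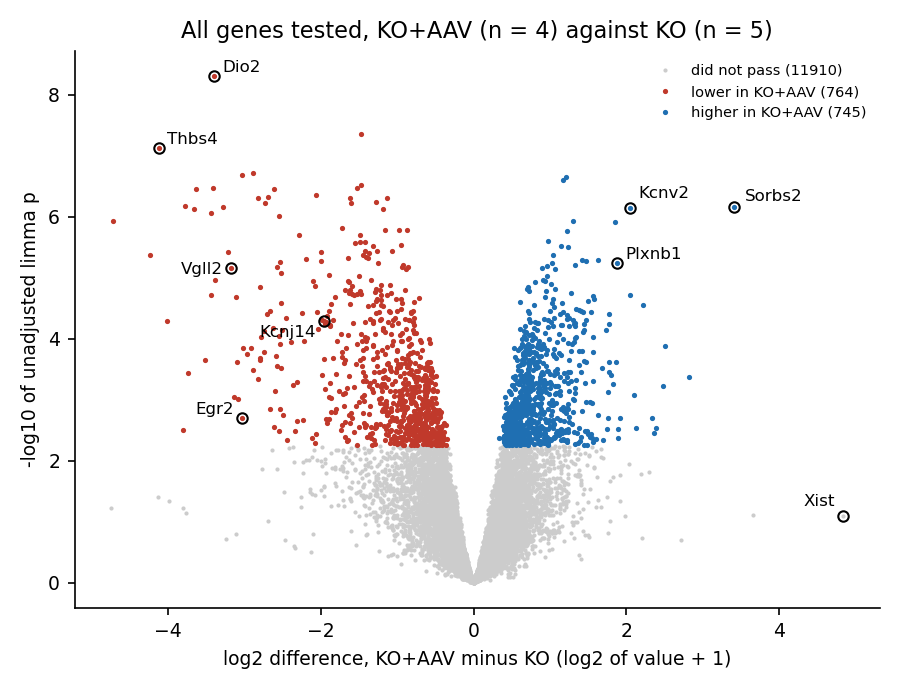
Difference between KO+AAV (n = 4) and KO (n = 5) hearts on the log2(value + 1) scale against -log10 of the unadjusted limma p, 1 point per gene tested. The 764 genes that were lower extend further from 0 than the 745 that were higher; Xist, high in 2 of the 4 KO+AAV hearts, did not pass the test.

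The 12 largest decreases are given first, among genes with a mean of at least 100 over both groups, an adjusted p under 0.05 and no overlap between the groups. Thbs4 encodes thrombospondin-4, a matricellular protein of injured heart and tendon (chromosome 13, 92751590 to 92794818, minus strand). It was 6166, 2656, 3146, 1550 and 4753 in KO 1 to 5 and 106, 463, 212 and 119 in KO+AAV 1 to 4. Every vector heart lay well below the lowest KO heart, and the WT mean was 95.1 ± 33.9. The difference was -4.12 (SE 0.44, 17.4-fold lower; limma adjusted p = 0.000332).

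Dio2 encodes the type 2 deiodinase that converts thyroxine to active thyroid hormone inside cells (chromosome 12, 90724552 to 90738438, minus strand). It was 459, 327, 283, 281 and 494 in the KO hearts and 18.1, 34.4, 66.2 and 28.5 in the vector hearts, with 24.3 ± 3.15 in WT. The gap between the groups was wide against the spread within them, and its adjusted p of 6.62e-05 (limma, difference -3.40, SE 0.29) was the smallest of the 12. Vgll2, a vestigial-like cofactor of TEAD transcription factors known from skeletal muscle, was 440, 295, 175, 789 and 504 in KO and 14.2, 82.7, 62.7 and 43.2 in KO+AAV hearts. Its WT mean was 3.71 ± 1.75, so all vector hearts stayed above the WT mean while lying below all KO hearts (difference -3.17, limma adjusted p = 0.00124).

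The other large decreases fall by role into matrix, signalling and membrane genes. Of the matrix genes, Col12a1, a collagen that sits on the surface of collagen fibrils, fell from 274 ± 81.0 (SD, n = 5) to 19.1 ± 6.27 (n = 4). Fmod, the fibril-binding proteoglycan fibromodulin, fell from 348 ± 157 to 30.4 ± 22.7, and the secreted protease Adamts8 from 695 ± 245 to 66.6 ± 51.6. Ltbp2, a microfibril protein of the latent TGF-beta binding family, fell from 763 ± 319 to 77.3 ± 38.8, and P3h2, a collagen prolyl 3-hydroxylase, from 552 ± 192 to 60.3 ± 35.8. Ryr3, a ryanodine receptor isoform that is minor in adult heart, fell from 516 ± 222 to 57.8 ± 47.9. Gnal, the olfactory-type G protein alpha subunit, fell from 189 ± 94.0 to 15.7 ± 5.36. The membrane proteins Syndig1 and Ildr2 fell from 221 ± 66.8 to 27.6 ± 23.4 and from 486 ± 124 to 62.1 ± 42.5. Limma adjusted p values of these 9 genes ran from 0.000383 to 0.00222. Another gene on the opposite strand overlaps part of the exons of Adamts8, Ildr2, Syndig1 and P3h2, from 10.6% in Adamts8 to 28.4% in P3h2, and the strand setting of the counting is not given in the sources used here.

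Promoter sequence is shown for the genes of largest change that hold a TEAD motif, since members of the TEAD list moved. RefSeq entries (GRCm38.p6) of the 250 bases before the start were found for 7 of the 12 decreased genes (7 entries). They were found for 6 of the 12 increased genes (10 entries). GGAATG, the core of the TEAD site, searched on both strands, was in Thbs4 and Dio2 of the first and in Plxnb1 and Mhrt of the second. It was in 12.6% of 32851 promoter entries, a share per entry, while the matches here are counted per gene. AAGGTCA, the half-site of oestrogen-related receptors, and the interferon-stimulated response element were in none of the 13 (4.08% and 2.98% of all promoters). The promoters that hold a match are printed 5′ to 3′ on the gene's strand, with the match in capitals: whole for Thbs4 (chr13:92794819-92795068, minus strand, 2 overlapping matches on the other strand) and Dio2 (chr12:90739039-90739288, minus strand, 36 bases before the start), and as 30 bases for Plxnb1 (chr9:109095276-109095305, plus strand) and Mhrt (chr14:54968555-54968584, plus strand).
Thbs4: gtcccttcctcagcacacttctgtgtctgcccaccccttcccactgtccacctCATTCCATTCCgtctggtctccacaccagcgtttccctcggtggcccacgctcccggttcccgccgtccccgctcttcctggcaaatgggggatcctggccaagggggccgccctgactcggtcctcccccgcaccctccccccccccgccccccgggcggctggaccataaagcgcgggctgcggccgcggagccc
Dio2: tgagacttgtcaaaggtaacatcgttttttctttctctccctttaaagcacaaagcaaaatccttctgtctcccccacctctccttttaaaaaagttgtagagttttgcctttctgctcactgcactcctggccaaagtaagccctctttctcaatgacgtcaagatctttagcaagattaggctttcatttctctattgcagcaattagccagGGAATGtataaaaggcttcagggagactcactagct
Plxnb1: tcccgcgggaccGGAATGcggggtcccgga
Mhrt: ctcagggaacctGGAATGccactcaggcca
A match is a description of these letters, not of a bound site.

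The largest increases after Sorbs2, chosen by the same rule, were smaller than the decreases, at 1.44 to 2.05 on the log2 scale. Kcnv2, a silent subunit that modifies voltage-gated potassium channels (chromosome 19, 27322588 to 27337179, plus strand), was 54.0, 60.4, 89.4, 78.4 and 48.4 in KO 1 to 5. In KO+AAV 1 to 4 it was 339, 333, 225 and 208, against 357 ± 138 in WT (difference 2.05, SE 0.26, limma adjusted p = 0.000383). Plxnb1, a receptor for semaphorin 4D, was 244, 317, 326, 326 and 190 in KO and 1383, 1569, 725 and 658 in KO+AAV hearts (difference 1.87, SE 0.28, limma adjusted p = 0.00117). That the groups were apart in both genes was a condition of the choice. In both, KO+AAV 1 and 2 lay above KO+AAV 3 and 4.

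The same order held in all 11 of these genes. Mhrt, a long non-coding RNA read from the opposite strand at the Myh7 locus, was 390, 211, 270, 206 and 195 in KO and 1608, 1475, 512 and 524 in KO+AAV hearts (difference 1.86, limma adjusted p = 0.0081). Its exons are overlapped for 39.9% of their length by Myh7, a gene that moved the other way. Ybx2, a Y-box RNA-binding protein best known from germ cells, was 657 and 691 in KO+AAV 1 and 2 and 182 and 203 in KO+AAV 3 and 4, above 87.1 to 141 in KO. Myo5c, an unconventional myosin, rose from 70.4 ± 9.42 to 256 ± 103, and Ppl, the plakin periplakin, from 74.4 ± 31.5 to 202 ± 77.6. Slc36a2, an amino acid transporter, rose from 84.4 ± 35.0 to 238 ± 53.2, and Aqp7, a glycerol channel, from 161 ± 25.6 to 477 ± 132. The enzyme genes Gpt (alanine aminotransferase) and Carns1 (carnosine synthase) rose from 167 ± 50.2 to 459 ± 131 and from 327 ± 37.1 to 937 ± 341. Adamts7, a secreted protease, rose from 148 ± 38.0 to 437 ± 217 (limma adjusted p = 0.0124), a call that ended without KO+AAV 1 (limma adjusted p = 0.0588). Without KO+AAV 1 and 2 together, Mhrt (limma adjusted p = 0.175), Ybx2, Myo5c, Slc36a2, Aqp7, Adamts7, Carns1 and Ppl did not pass, and Kcnv2, Plxnb1 and Gpt still did. With the Xist or Y-linked class as a covariate, Mhrt (limma adjusted p = 0.0502), Ybx2 (0.0527) and Adamts7 (0.0734) did not pass, and in Y-linked libraries alone Adamts7 (0.117) and Ppl (0.0732) did not. Other genes share 40.3% of the exons of Carns1 on the opposite and 29.7% on the same strand.

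**Figure D3:**
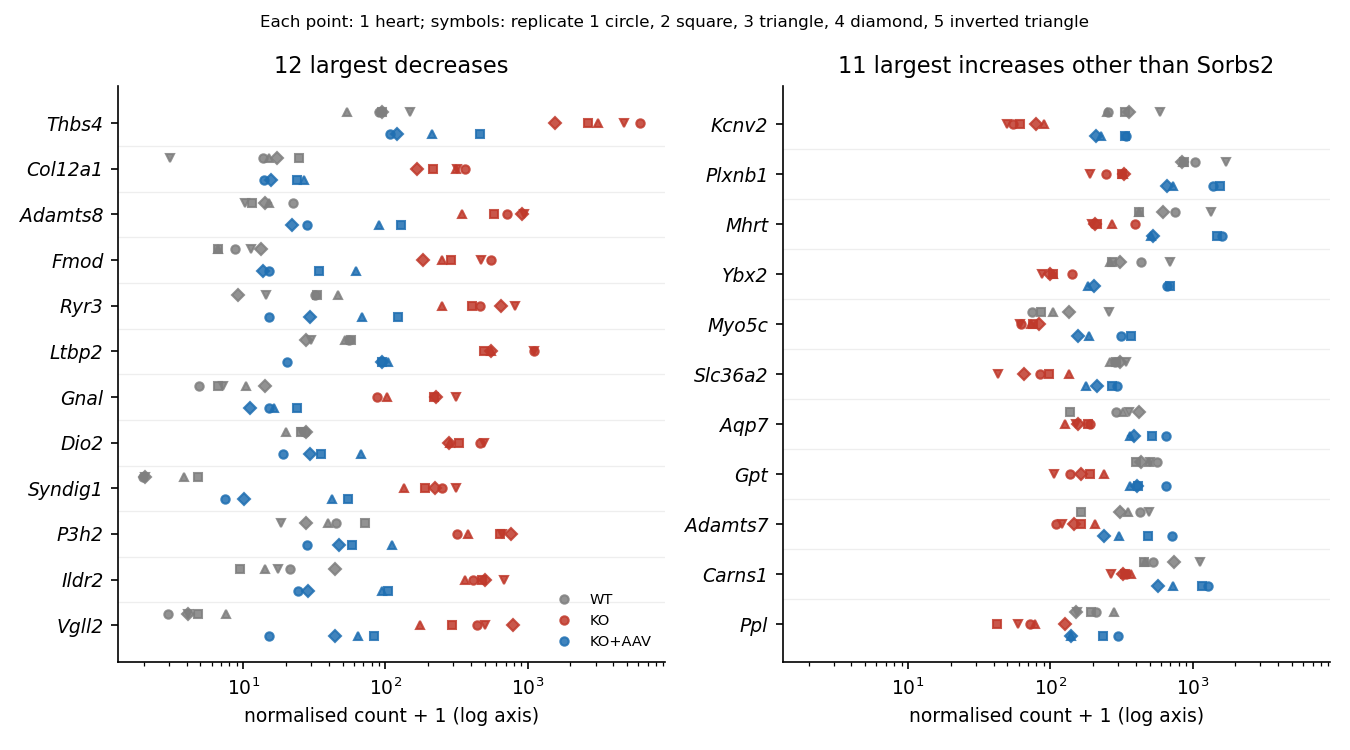
Normalised count + 1 (log axis) in each 6-month heart for the 12 largest decreases and the 11 largest increases other than Sorbs2; each point is 1 heart, colours are groups and symbols are replicates. Rows were chosen so that KO and KO+AAV points do not overlap. KO+AAV 1 and 2 lie above KO+AAV 3 and 4 in all 11 rows of increases.

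The vector hearts differed among themselves. KO+AAV 1, with the lowest Sorbs2 of the 4 and a value near WT, was the lowest of the 4 in 9 of the 12 decreases and the highest in 8 of the 11 increases. Over all 764 lower genes it was the lowest vector heart in 59.3%, and over the other 744 higher genes the highest in 65.1%. Among all genes tested, KO+AAV 1 was the lowest in 22.9% and the highest in 23.5%. KO+AAV 3 and 4, with the most Sorbs2, both lay below KO+AAV 1 and 2 in 56.3% of the higher genes, against 31.2% of all genes tested. These genes were called on the same hearts, so the shares are a description. KO+AAV 1 and 3 are the hearts with Xist, and the part of that class in this order was not tested.

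Natriuretic and fetal stress genes, which the ventricle raises under load, fell. Of 17 members tested, 12 fell and none rose, 70.6% against 11.2% of all genes, while 5 did not pass. Their median was -1.54. Xirp2, a Z-disc and intercalated disc protein of the Xin family, was 114007, 112597, 81079, 102405 and 141896 in KO and 9018, 21970, 31746 and 19380 in KO+AAV hearts, with 9194 ± 3140 in WT. All 4 vector hearts were far below the KO hearts (difference -2.54, SE 0.33, limma adjusted p = 0.000472), and KO+AAV 1 alone was at the WT mean. Nmrk2, a kinase of the NAD salvage pathway induced in failing heart, fell from 1113 ± 492 to 163 ± 57.7 (limma adjusted p = 0.000383). Mybpc2, the fast skeletal myosin-binding protein C, fell from 3982 ± 861 to 1163 ± 530, and Fhl1, a LIM protein of the titin complex, from 4969 ± 943 to 1803 ± 482.

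Nppa encodes atrial natriuretic peptide. It was 118031, 60255, 36237, 75420 and 126811 in KO and 7697, 20309, 32694 and 27963 in KO+AAV hearts (difference -1.96, limma adjusted p = 0.00759). The highest vector heart came close to the lowest KO heart, and the call ended without KO+AAV 1 and 2. An unnamed gene model on the opposite strand covers 61.5% of the exons of Nppa. Myh7, the slow beta myosin heavy chain, singled out after its values were seen, was 137963, 97021, 99578, 150922 and 209559 in KO and 10988, 50766, 45479 and 13717 in KO+AAV hearts. It fell by 2.46 on the log2 scale (limma adjusted p = 0.00349), while Myh6, the fast adult alpha chain, was 265776 ± 92366 in KO and 521508 ± 159501 in KO+AAV hearts (difference 0.99) and did not pass (adjusted p = 0.0555). The count of stress genes that fell was 10 without KO+AAV 1, 10 without KO 5 and 8 without KO+AAV 1 and 2. It was 8 with the Xist or Y-linked class as a covariate and 5 in Y-linked libraries alone, where Nppa did not pass (limma adjusted p = 0.0672).

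TEAD factors, cofactors and targets moved in part. TEAD proteins are the DNA-binding partners of YAP, TAZ and the vestigial-like proteins. Of 14 members tested, 5 fell and none rose, 35.7% against 11.2% of all genes (median -0.49). Besides Vgll2, Ctgf, the target that encodes connective tissue growth factor, was 11834, 10220, 6884, 10554 and 13692 in KO and 956, 2303, 2705 and 1778 in KO+AAV hearts. The vector hearts lay below the WT mean of 3536 ± 2054 (difference -2.52, SE 0.39, limma adjusted p = 0.00145). The count was 3 without any 1 of KO 2, KO 4, KO 5, KO+AAV 1 or KO+AAV 2.

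Collagens fell almost throughout. Of 20 fibrillar and network collagens tested, 17 fell and none rose, 85% against 11.2% of all genes. Col6a3, Col14a1 and Col5a3 did not pass, and the median was -0.94. Col1a1, a chain of type I collagen, the main fibre of scar, was 4471, 2870, 3736, 2817 and 4971 in KO hearts. In KO+AAV hearts it was 1206, 1182, 1659 and 1312, against 1290 ± 126 in WT, so the vector hearts lay around the WT mean (difference -1.47, SE 0.17, limma adjusted p = 0.000383). Its partner chain Col1a2 was 6021, 3635, 4591, 3888 and 5290 in KO and 2059, 2046, 2131 and 1872 in KO+AAV hearts, with WT at 1869 ± 223. Here the vector hearts differed little from each other. Col8a1, a short-chain collagen of vessel walls and remodelling heart, fell from 1559 ± 305 to 422 ± 179 (limma adjusted p = 0.000996). The count of collagens that fell was 14 without KO+AAV 1, 15 without KO 5 and 8 without KO+AAV 1 and 2.

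Matricellular proteins and proteoglycans, which sit among the fibres and signal to cells, included the largest falls. Of 25 members tested, 16 fell and none rose, 64% against 11.2% of all genes (median -1.18). Postn, periostin, a marker of activated fibroblasts, was 9281, 4716, 5698, 3509 and 7365 in KO and 394, 981, 1065 and 901 in KO+AAV hearts. Cilp, a cartilage intermediate layer protein secreted by cardiac fibroblasts, was 3262, 1911, 1896, 2142 and 2850 in KO and 127, 428, 547 and 232 in KO+AAV hearts. In both genes KO+AAV 1 was the lowest. For Postn it alone lay below the WT mean of 507 ± 169, and for Cilp all 4 vector hearts lay above the WT mean of 86.5 ± 23.0. The differences were -2.89 (SE 0.33) for Postn and -3.02 (SE 0.35) for Cilp, both at a limma adjusted p of 0.000383.

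Matrix proteases, their inhibitors and crosslinking enzymes fell in 12 of 23 members tested, with none higher. This was 52.2% against 11.2% of all genes (median -1.07). Mmp14, the membrane-bound collagenase, fell from 429 ± 78.4 to 174 ± 17.7 (WT 189 ± 25.7, limma adjusted p = 0.000383). Mmp2, the gelatinase that Mmp14 activates, fell from 1667 ± 175 to 711 ± 187 (limma adjusted p = 0.000993). Loxl2, a lysyl oxidase that crosslinks collagen, fell from 891 ± 162 to 276 ± 89.7, though 42.8% of its sequence is shared with other gene models. The count was 8 without KO+AAV 1.

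Of the TGF-beta ligands, receptors and mediators, which drive fibroblast activation, 9 of 20 fell and none rose. This was 45% against 11.2% of all genes (median -0.62). The ligand Tgfb2 was 1705, 1628, 1210, 1834 and 2001 in KO and 163, 551, 546 and 272 in KO+AAV hearts (difference -2.28, SE 0.31, limma adjusted p = 0.000714). All vector hearts stayed above the WT mean of 130 ± 32.6. The ligand Tgfb3 fell less, from 857 ± 243 to 424 ± 98.2 (limma adjusted p = 0.00625). The receptor Tgfbr1 fell from 572 ± 107 to 253 ± 30.5 (limma adjusted p = 0.000636), with WT at 285 ± 42.3. The count was 5 without KO+AAV 1 and 5 without KO 5.

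Oxidative phosphorylation was the list with most increases. Of 33 members tested, 24 rose, none fell and 9 did not pass, with a median of 0.73. The share that passed was 72.7%, against 11.2% of all genes. Cyc1, cytochrome c1 of complex III, was 6558, 7147, 7975, 6738 and 6408 in KO and 12588, 10654, 11217 and 11695 in KO+AAV hearts, against 12260 ± 1394 in WT. Sdhb, the iron-sulphur subunit of complex II, was 8375, 7768, 7822, 7001 and 6590 in KO and 18808, 13988, 12734 and 12246 in KO+AAV hearts. Both genes had no overlap between the groups, with limma adjusted p of 0.00305 for Cyc1 and 0.00349 for Sdhb. The complex I subunits Ndufa9 and Ndufs3 rose from 5154 ± 628 to 8942 ± 1235 and from 3296 ± 204 to 5814 ± 1158. These rises were each below 2-fold. The count was 13 without KO+AAV 1, 18 without KO 5, 6 without KO+AAV 1 and 2, 11 with the Xist or Y-linked class as a covariate and 3 in Y-linked libraries alone. In the last of these, Cyc1 (limma adjusted p = 0.0583), Ndufa9 (0.055) and Ndufs3 (0.0538) did not pass.

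Genes of fatty acid uptake and oxidation, the main fuel path of the adult heart, rose in 11 of 35 members tested, with none lower. This was 31.4% against 11.2% of all genes (median 0.41). Acaa2, the mitochondrial thiolase that ends a turn of beta oxidation, was 3945, 6933, 7177, 6156 and 3940 in KO and 17370, 11959, 13145 and 12648 in KO+AAV hearts. KO 1 and KO 5, the KO hearts with more Sorbs2 signal, were the lowest for Acaa2 (difference 1.33, SE 0.20, limma adjusted p = 0.00121). Eci1, an enoyl-CoA isomerase, rose from 2334 ± 302 to 4794 ± 1083 (limma adjusted p = 0.00117), and Acot2, a mitochondrial acyl-CoA thioesterase, from 677 ± 73.3 to 1104 ± 135 (limma adjusted p = 0.00209). The sequence of Acot2 is shared with Acot1 for 17.1%. The count was 5 without KO+AAV 1.

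In glucose uptake and glycolysis, 5 of 25 members rose and 1 fell, 24% against 11.2% of all genes (median 0.20). The muscle enolase Eno3 was 6932, 11394, 12146, 8487 and 5868 in KO and 25758, 17543, 20562 and 20205 in KO+AAV hearts (difference 1.27, limma adjusted p = 0.00221). Ldhb, the heart form of lactate dehydrogenase, rose from 12841 ± 1762 to 23212 ± 3941 (limma adjusted p = 0.00558). Pfkp, the platelet form of phosphofructokinase, was the member that fell, from 1383 ± 151 to 787 ± 160 (limma adjusted p = 0.00807). Pfkfb1 rose to 387 in KO+AAV 1 and to 90.0 to 106 in the other vector hearts, from 19.7 to 50.7 in KO hearts. The members that rose numbered 3 without KO+AAV 1, and 2 fell without any 1 of WT 2, WT 4 or KO 3.

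The study's title names calcium handling and the cytoskeleton. Of 28 calcium handling genes tested, 2 rose and 2 fell, 14.3% against 11.2% of all genes (median -0.04). Besides Ryr3, Casq1, the skeletal form of the calcium store protein calsequestrin, was 1357, 1582, 1526, 4472 and 2826 in KO and 255, 810, 662 and 280 in KO+AAV hearts. Casq1 was still above the WT mean of 186 ± 54.9 in all 4 vector hearts (difference -2.25, SE 0.40, limma adjusted p = 0.00305). Hrc, the histidine-rich protein that holds calcium in the sarcoplasmic reticulum, rose from 11209 ± 2403 to 18123 ± 1805 (limma adjusted p = 0.0136), a call that ended without KO+AAV 1 (limma adjusted p = 0.0579). No member of the list rose without KO+AAV 1, and 1 rose without any 1 of WT 1 or KO 2 to 5.

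Of 27 microtubule genes tested, 1 rose and 3 fell, 14.8% against 11.2% of all genes (median -0.28). Map1a, a microtubule-associated protein best known from neurons, was 416, 412, 417, 739 and 527 in KO and 165, 170, 217 and 181 in KO+AAV hearts, against 182 ± 39.0 in WT. The vector hearts lay around the WT mean with little spread (difference -1.42, SE 0.20, limma adjusted p = 0.000852). With KO+AAV 1 left out, 1 member of the list fell and none rose; none rose without KO 4 or KO+AAV 3 either, and 2 rose without KO+AAV 4.

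In the intercalated disc and intermediate filaments, 5 of 25 members fell and none rose, 20% against 11.2% of all genes (median -0.37). Synm, the intermediate filament protein synemin, fell from 415 ± 69.0 to 235 ± 45.5 (limma adjusted p = 0.00558). Nrap, which anchors actin at the disc and in growing myofibrils, was 19865, 25790, 24102, 36106 and 27942 in KO and 8740, 11325, 13742 and 12824 in KO+AAV hearts (limma adjusted p = 0.00623). The Nrap values of the vector hearts scattered around the WT mean of 12830 ± 3950. The count was 3 without any 1 of KO 2, KO 5, KO+AAV 3 or KO+AAV 4.

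Of 30 sarcomere and Z-disc genes, 2 rose and 6 fell, 26.7% against 11.2% of all genes (median -0.03). Synpo2l, a Z-disc protein of the synaptopodin family, was 6047, 9063, 8172, 11505 and 12314 in KO and 719, 1427, 2914 and 2053 in KO+AAV hearts (difference -2.54, SE 0.38, limma adjusted p = 0.00114). The Z-disc protein Myot, myotilin, fell from 3416 ± 833 to 1277 ± 384 (limma adjusted p = 0.0074), and Flnc, filamin C, from 10674 ± 1487 to 5564 ± 1109 (limma adjusted p = 0.00835). In actin and focal adhesion genes, 1 of 30 rose and 6 fell, 23.3% against 11.2% of all genes (median -0.33). Itgb1bp2, melusin, the muscle protein that binds the integrin beta 1 tail, was the one that rose, from 1821 ± 88.6 to 3377 ± 787 (limma adjusted p = 0.00607). No sarcomere gene rose without KO+AAV 1, 1 rose without any 1 of WT 1, WT 4, KO 2, KO 3, KO 5 or KO+AAV 2, and 4 rose without WT 5 or KO 1. Of the actin and focal adhesion genes, 1 fell without KO+AAV 1, 2 without KO 5 and 3 without KO 3.

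Among potassium, sodium and pacemaker channels, 4 of 27 rose and 1 fell, 18.5% against 11.2% of all genes (median 0.27). Kcnip2, the subunit of the transient outward current, was 777, 1337, 1477, 1402 and 628 in KO and 3047, 1901, 2371 and 2904 in KO+AAV hearts (WT 3284 ± 556, limma adjusted p = 0.00549). Kcnj14, an inward rectifier, was the member that fell, and it moved away from WT. It was 141, 127, 111, 113 and 175 in KO and 20.7, 38.2, 46.1 and 33.1 in KO+AAV hearts, against 785 ± 387 in WT. All vector hearts lay below all KO hearts (difference -1.95, SE 0.35, limma adjusted p = 0.00352), and a predicted gene shares 20.2% of its sequence. Without KO+AAV 1 and 2 the Kcnj14 call ended (limma adjusted p = 0.0553). The channels that rose numbered 2 without KO+AAV 1, and without KO+AAV 4, 2 fell.

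Xist-marked hearts are uneven between the groups, and list counts moved with how they were handled. With the class as a covariate and in Y-linked libraries alone, respectively, the collagens that fell numbered 14 and 10, the matricellular proteins 15 and 13, the matrix proteases and related genes 8 and 8, and the TGF-beta genes 5 and 3. The fatty acid genes that rose numbered 6 and 4, the glycolysis genes 3 and 1, and the channels 2 and 1. The calcium handling genes that rose numbered 1 and 0. The TEAD list had 2 and 2 lower, the intercalated disc list 3 and 3, the sarcomere list 3 and 3, the microtubule list 1 and 1, and the actin and focal adhesion list 1 and 0. Of the genes given values above, Tgfb3, Eno3, Ldhb, Pfkfb1, Hrc, Flnc and Kcnip2 passed with the covariate and did not pass in Y-linked libraries alone. The same holds for Ckm and Mfap5, while Egr2, Ifit2, Mki67 and Tnni3 passed in neither.

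**Figure D4:**
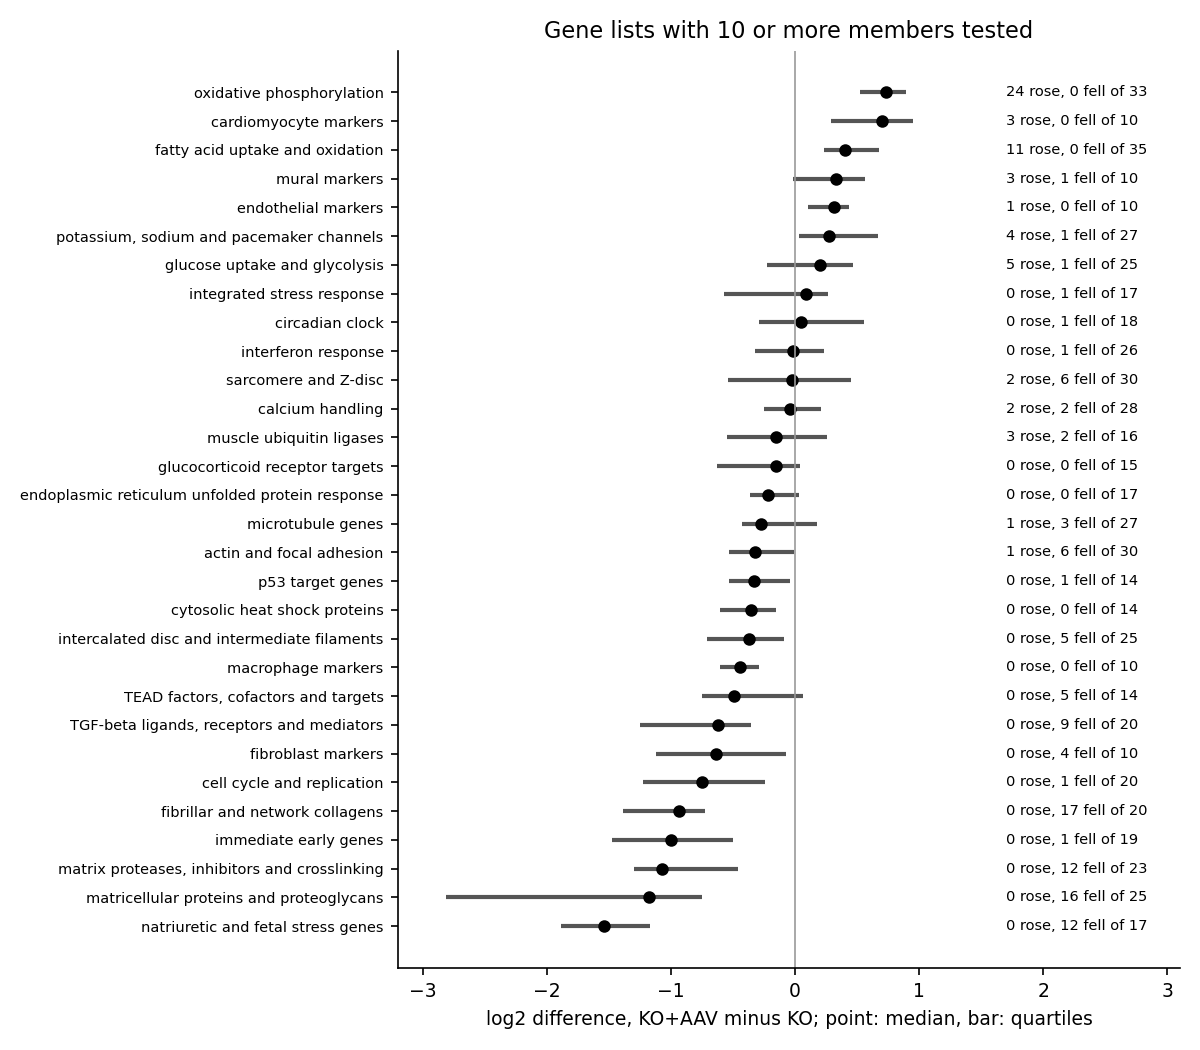
Median difference (points) and quartiles (bars) of the members tested in each list with 10 or more of them, on the log2(value + 1) scale, KO+AAV minus KO, with the number that passed the test in each direction. Stress and matrix lists lie left of 0, oxidative phosphorylation and fatty acid oxidation right of it, and interferon response close to 0.

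Interferon response genes did not come down as a list. Of 26 members tested 1 fell and none rose, 3.85% against 11.2% of all genes, and the median was -0.01. Their medians against WT were 0.63 in KO and 0.63 in KO+AAV hearts, in comparisons that share the WT libraries. The gene that fell was Ifit2, an antiviral protein, from 536 ± 71.9 to 314 ± 112 (limma adjusted p = 0.03), a call that ended without KO+AAV 1 (limma adjusted p = 0.109), without KO+AAV 2 (0.0909), and without KO 2 (0.071), KO 4 (0.0611) or KO 5 (0.0559). The number that fell was 3 without KO+AAV 4 and 3 without KO+AAV 3 and 4. Ifi27 was 384 ± 126 in KO and 644 ± 215 in KO+AAV hearts and did not pass (adjusted p = 0.11).

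Immediate early genes, which respond within minutes to stimuli and to tissue handling, differed within the vector group. Relative to the KO mean, the list of 19 members stood at -2.29 and -2.13 in KO+AAV 3 and 4, and at -0.43 and 0.49 in KO+AAV 1 and 2. The 5 KO hearts ranged from -0.57 to 0.37. Of the 19 members 1 fell and none rose, 5.26%, near the 5.69% of all genes that were lower. Egr2 was the member that fell, at 308, 469, 193, 326 and 320 in KO and 111, 236, 20.2 and 2.76 in KO+AAV hearts, which overlapped the KO hearts (difference -3.03, limma adjusted p = 0.0274). The difference was -1.92 without KO+AAV 4 and -3.91 without KO+AAV 2. The call ended without KO 2 (limma adjusted p = 0.0604), KO 4 (0.0532), KO 5 (0.0567) or KO+AAV 3 (0.0634). Without KO+AAV 2, 6 of the 19 were lower, without WT 2, 3 were lower, and without KO+AAV 1 and 2 together, 10 were lower.

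Further stress and housekeeping lists were counted in the same way. In the endoplasmic reticulum unfolded protein response (17 members), cytosolic heat shock proteins (14) and glucocorticoid receptor targets (15), none passed the limma test after adjustment. At an unadjusted limma p under 0.05 there were 4, 6 and 1 members, beside 3975 of all 13419 genes tested. The integrated stress response, p53 targets, the circadian clock and the cell cycle had 1 member lower each, of 17, 14, 18 and 20, and none higher. These are 5.88%, 7.14%, 5.56% and 5%, near the 5.69% of all genes that were lower. At an unadjusted limma p under 0.05 they had 4, 3, 4 and 8 members, and the 8 of the cell cycle were all lower. Of the 20 cell cycle genes 19 had a negative and 1 a positive difference. KO+AAV hearts lay wholly below KO hearts in 5 of the 20 and above in none, against 7.44% below over all genes. The counts of 1 member lower in these 4 lists became 0 without KO+AAV 1. Other single libraries moved them too: in the cell cycle 3 fell without WT 5 and 2 without WT 4 or KO 1, and in the integrated stress response 2 fell without WT 5, and 1 rose without KO 4 or KO+AAV 2. The integrated stress response had none lower without any 1 of WT 1, WT 4, KO 1, KO 2, KO 3, KO 5 or KO+AAV 3, and the circadian clock none without any 1 of KO 2 to 5 or KO+AAV 2. The cell cycle median was -0.75, and its member that fell was the proliferation gene Mki67, from 359 ± 169 to 139 ± 45.6 (limma adjusted p = 0.0443). Without KO+AAV 1, Mki67 did not pass (limma adjusted p = 0.154), nor without KO+AAV 2 (0.0833) or 3 (0.0791), KO 2 (0.0875), 3 (0.103) or 5 (0.077), or WT 1 (0.0508). Of 16 muscle ubiquitin ligases, 3 rose and 2 fell, 31.2% against 11.2% of all genes. Klhl41, a sarcomere-associated adaptor of such ligases, fell from 2600 ± 423 to 1071 ± 251 (limma adjusted p = 0.00217). None of the ligases rose without KO+AAV 1 and 1 fell, and 1 rose without any 1 of WT 3, WT 4, KO 2, KO 5 or KO+AAV 2. With the Xist or Y-linked class as a covariate 1 rose and 1 fell, and in Y-linked libraries alone none rose and 2 fell.

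**Figure D5:**
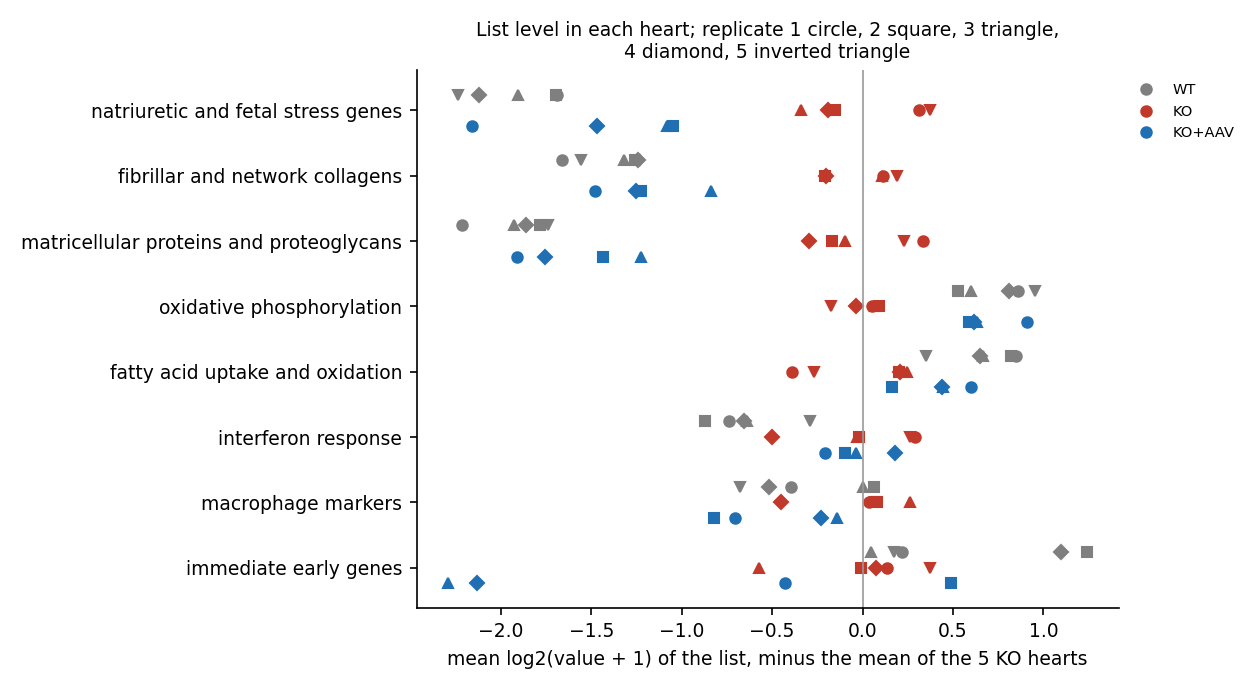
Mean log2(value + 1) of the members of 8 lists in each 6-month heart, minus the mean of the 5 KO hearts; colours are groups and symbols are replicates. KO+AAV hearts lie toward WT for stress, collagen, matricellular and oxidative phosphorylation lists, amid the KO hearts for interferon response, and are split for immediate early genes.

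Markers of cell types were measured beside these lists. Cardiomyocyte markers summed to 844275 to 1089890 in KO, 1292330 to 1917670 in KO+AAV and 1410910 to 1749690 in WT hearts, so KO and KO+AAV did not overlap. Of 10 markers 3 rose, 30% against 11.2% of all genes. Among them Tnni3, cardiac troponin I, rose from 47045 ± 7204 to 115317 ± 42892 (limma adjusted p = 0.0124, and 0.0571 without KO+AAV 1). The count of markers that rose was 1 without KO+AAV 1 and 5 without WT 5 or KO 1. It was 1 with the Xist or Y-linked class as a covariate and 0 in Y-linked libraries alone. Fibroblast markers summed to 37245 to 55886 in KO and 31263 to 41006 in KO+AAV hearts. Of these 10, 4 fell, 40% against 11.2% of all genes, and 6 did not pass. Mfap5, a microfibril protein, fell from 886 ± 485 to 302 ± 62.7 (limma adjusted p = 0.0119). The fibroblast markers that fell numbered 5 with the Xist or Y-linked class as a covariate and 3 in Y-linked libraries alone. The cardiomyocyte sum moved with the energy lists above, while the fibroblast sums of KO and KO+AAV hearts overlapped. The mean log2 value of the fibroblast markers did not overlap. It ran from 10.7052 to 11.2358 in KO and, lower, from 10.0161 to 10.5308 in KO+AAV hearts. Fibroblast markers thus fell beside the matrix lists on this measure. Col1a1 and Col1a2 are fibroblast markers here and are also counted among the collagens above, so these lists share members. The part of both sums in the energy and matrix results was not tested.

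Markers of the other cell types were counted likewise. Macrophage markers summed to 3892 to 6064 in KO and 3060 to 5049 in KO+AAV hearts, and none of 10 passed the limma test (median -0.44), with 2 at an unadjusted p under 0.05. Over all genes tested, 3975 of 13419 were under that unadjusted threshold. Endothelial markers summed to 18463 to 28492 in KO and 25728 to 37019 in KO+AAV hearts, with 1 of 10 higher (10% against 11.2% of all genes). That count was 0 without any 1 of WT 1, WT 3, KO 2 to 5 or KO+AAV 1 to 3 and 2 without KO 1, and 1 marker was lower without KO+AAV 2. No endothelial marker passed with the Xist or Y-linked class as a covariate or in Y-linked libraries alone. Mural markers summed to 8174 to 10933 in KO and 11107 to 13463 in KO+AAV hearts, so the groups did not overlap. Of 10 markers 3 were higher and 1 lower, 40% against 11.2% of all genes. No mural marker passed with the Xist or Y-linked class as a covariate, in Y-linked libraries alone, or without KO+AAV 1 and 2. Of the mural markers, 1 was higher without any 1 of KO 2, KO 3, KO 5 or KO+AAV 1, and none was lower without KO 4, KO 5 or KO+AAV 1. Neutrophil markers summed to 81.4 to 360 in KO and 43.5 to 301 in KO+AAV hearts, with 1 of 5 lower (20% against 11.2% of all genes). That call ended without any 1 of WT 1, WT 4 or the KO and KO+AAV libraries other than KO 4. Schwann cell markers summed to 172 to 302 and 278 to 480, and erythroid markers to 8077 to 25616 and 13159 to 22631, with none passing in either and 3 Schwann cell markers at an unadjusted p under 0.05. B cell markers summed to 342 to 535 and 331 to 604, and mesothelial markers to 127 to 231 and 138 to 347, again with none passing limma and none under 0.05 unadjusted. T and NK cell markers were near 0: 7 of 9 stayed under 10 in all 9 libraries, Cd3e and Cd3d included. Of 8 adipocyte markers 6 stayed under 10 throughout. For tissue outside the ventricle wall, the atrial marker Bmp10 and the skeletal markers Myh1, Myh2, Myh4, Tnnc2 and Myf6 stayed under 10 in all 9 libraries. The list of atrial markers still had 2 lower and 1 higher of 4 tested, Nppa among them, and 1 lower and none higher without KO+AAV 1. Of 4 skeletal markers tested 1 rose, 25% against 11.2% of all genes. It was Ckm, the muscle creatine kinase, from 15267 ± 4469 to 34273 ± 3598 (limma adjusted p = 0.00349). Ckm is also among the cardiomyocyte markers that rose, so 1 gene is counted in both lists.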

How the data were processed

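Values were the authors' deposited normalised counts per gene at 6 months, a signal of fractional, never negative values in 14 libraries. Per the submitters' processing notes the build was mm10, and the series text names DESeq2; aligner, counter, annotation and strand setting were not given in the sources used here. Low values lay near multiples of a step, from which counted reads were estimated, but only 67.6% to 90.3% were whole within 0.1 of a step, so no count test was run. limma 3.58.1 (R 4.3.3; linear model, moderated variances, mean trend) was fitted to log2(value + 1) of the 3 groups together, two-sided, with Benjamini-Hochberg adjustment over the 13419 genes and a threshold of 0.05. The fit was tested on simulated data. Of 41 gene lists, 14 hold cell or tissue markers. Named were Sorbs2 and Sorbs3, the 12 largest changes each way (means of at least 100, no overlap, no predicted, cDNA-clone or pseudogene symbols) and, per list, up to 4 members of smallest p; some genes this rule names are not reported here. Members and lists were chosen with earlier results of these data known. Like-numbered KO and KO+AAV libraries correlated at -0.391 to 0.253 after removal of group means, so numbers were not used as pairs. Gene positions and overlaps came from GENCODE on GRCm38 (mm10), promoters from RefSeq (GRCm38.p6). Alternatives changed the pseudocount, filter, scaling, libraries, weights, covariate and replicate block. The 6-week samples were left out, since the comparison has none. Tables and plots were made in Python 3.11.15 (pandas 2.3.3, matplotlib 3.10.9, numpy 2.4.6).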

Additional observations from a re-analysis of the deposited data

Results flagged for a closer look

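The KO and KO+AAV values of each gene given values above, and the mean log2 value of each gene list, were searched for a heart far from the others, by the gap to its nearest neighbour over the group's range. Of 230 groups, 11 were marked, and chance marks about 1 in 20 where values are independent and normal. Many genes here were chosen on these same hearts, and genes were searched as counts. That rate therefore cannot decide whether the number marked differs from chance. The marks are not independent, since Ndufa9 and Ndufs3 are members of the oxidative phosphorylation list. KO+AAV 1 stood apart most often. It was the lowest vector heart for Ltbp2 (19.4, nearest 93.1) and Myot (702, nearest 1440). It was the highest for Ndufa9 (10800, nearest 8580), Ndufs3 (7550, nearest 5290) and Pfkfb1 (387, nearest 106). The mean log2 value of oxidative phosphorylation was also highest in KO+AAV 1 (13.6, nearest 13.4), as was that of cardiomyocyte markers (16.8, nearest 16.5). Among the KO hearts, KO 5 was the lowest for Ndufa9 (4080, nearest 5250) and Pfkfb1 (19.7, nearest 43.1), KO 1 the highest for Tnni3 (59600, nearest 45000), and KO 4 the lowest for the mean log2 value of neutrophil markers (3.49, nearest 5.15).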

How the results depend on the processing

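Under all 28 alternatives, each of the 1509 genes called that could be tested kept its direction, and Sorbs2 kept its call. The alternatives reuse the libraries on which these genes were called, so the kept direction is a description and not support. The number called (higher, lower) moved from 1509 (745, 764) to 542 (224, 318) with the Xist or Y-linked class as a covariate, to 332 (82, 250) in Y-linked libraries alone, and to 3683 (1797, 1886) with array weights. Without KO+AAV 1 and 2 it was 349 (115, 234), and without KO+AAV 3 and 4 it was 3090 (1454, 1636), both omissions chosen after seeing the data. The first omission also ended the calls of Sdhb, Tgfb3, Pfkp, Pfkfb1, Hrc, Synm, Nrap, Myot, Flnc, Itgb1bp2, Kcnj14, Mfap5, Tnni3, Ifit2 and Mki67. Leaving out 1 library gave 571 to 1816 called, 240 to 909 higher and 331 to 920 lower, with 855 (405, 450) without KO 5 and 485 higher without KO 4. The replicate number as a block gave 1764; of the 4 like-numbered pairs 3 correlated above 0.1, and 1 library correlated best with its own number. Calls that were higher made up 49.4% of the main set, 41.3% with the covariate, 24.7% in Y-linked libraries alone and 33.9% at equal totals. Of the 100 named genes that passed, 40 passed under every alternative, among them Thbs4, Dio2, Postn, Col1a1, Tgfb2, Kcnv2 and Acaa2. The causes were not tested. The 4 or 5 hearts per group and unrecovered reads limit the precision, and counting error is not separated from spread between hearts.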
